A study of Mus musculus with 5 samples.

Results

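In all, 10 immune checkpoint genes were followed through the cells of MMTV-PyMT mammary tumors. The members were chosen by gene symbol alone and all 10 were found among the 31053 genes of the matrices. Pdcd1, Ctla4, Lag3, Havcr2, Tigit and Cd244 encode receptors. Cd274, Pdcd1lg2, Vsir and Cd276 encode ligands or counter-receptors. For each gene, the level was the number of unique molecular identifiers (UMIs, each standing for 1 captured transcript) per 10000 UMIs of a cell class, given beside the percentage of cells with at least 1 UMI.

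The tumors arose in female FVB/N-Tg(MMTV-PyVT)634Mul mice, a transgenic strain whose mammary epithelium makes polyoma middle T antigen under the promoter of mouse mammary tumor virus, and only tumors of the upper mammary glands were used. Treatment began at 7 weeks of age and lasted 6 weeks, with 2 intraperitoneal doses of 5 mg/kg per week. Control mice (6 tumors) received isotype mouse IgG2a, clone C1.18.4, and treated mice (9 tumors) received B20-4.1.1, an antibody that blocks murine VEGF-A. Each tumor came from its own mouse, and sorted DAPI- cells of 3 tumors were pooled into 1 library, giving 2 isotype and 3 B20-4.1.1 pools. Every pool held a single treatment, so the effects of pool and of treatment cannot be told apart. The question behind the comparison was whether blockade of VEGF-A, which can raise tumor hypoxia, alters the PD-1/PD-L1 axis.

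Checkpoint receptors restrain T cells and NK cells after their ligands are engaged on neighboring cells. PD-1 (Pdcd1) binds PD-L1 (Cd274) and PD-L2 (Pdcd1lg2), CTLA-4 (Ctla4) competes with CD28 for the B7 ligands, and TIM-3 (Havcr2), LAG-3 (Lag3) and TIGIT (Tigit) are found on stimulated lymphocytes. CD244 (Cd244, also called 2B4) is a receptor for CD48 on NK cells and cytotoxic T cells, VISTA (Vsir) is best known from myeloid cells and resting T cells, and B7-H3 (Cd276) is widely described on tumor and stromal cells.

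Of the members, Cd274 and Pdcd1lg2 are neighbors on the same strand and share their highest class in these tumors, so the sequence before each start site is shown. On GRCm38 (mm10), Cd274 lies at chr19:29367455-29388095 and Pdcd1lg2 at chr19:29410919-29471161, both on the plus strand, with 22823 bases between them. The windows are the 250 bases upstream of the RefSeq start (GRCm38.p6), at chr19:29367188-29367437 for Cd274 and chr19:29410669-29410918 for Pdcd1lg2, 5′ to 3′ on the plus strand, with capitals marking a searched motif.
Cd274: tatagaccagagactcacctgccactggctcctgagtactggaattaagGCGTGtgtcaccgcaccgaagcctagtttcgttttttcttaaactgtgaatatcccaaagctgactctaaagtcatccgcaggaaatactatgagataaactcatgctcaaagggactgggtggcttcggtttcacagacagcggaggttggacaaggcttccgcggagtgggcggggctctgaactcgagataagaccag
Pdcd1lg2: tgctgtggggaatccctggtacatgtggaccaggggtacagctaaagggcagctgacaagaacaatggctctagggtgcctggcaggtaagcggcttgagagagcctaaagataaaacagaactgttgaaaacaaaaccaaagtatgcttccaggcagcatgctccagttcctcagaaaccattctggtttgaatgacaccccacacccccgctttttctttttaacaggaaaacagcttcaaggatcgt

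The motifs were searched on both strands of the 250 upstream bases, the interferon-response element core (GAAA, any 2 bases and GAAA), the STAT core TTCNNNGAA, and the hypoxia-response cores ACGTG and GCGTG. They were present in 2.98%, 7.02%, 16.6% and 28.2% of 32851 RefSeq windows of the same length, respectively. The Cd274 window held a single GCGTG and the Pdcd1lg2 window held none of the 4 motifs. Of the other members, Ctla4, Havcr2 and Tigit had 1 ACGTG match and Cd244 had 2, and the interferon and STAT cores were found in 0 of the 9 windows that the reference held. A match describes letters in this window only.

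Cells were gated by markers that include no member gene. Of 30340 deposited cells, 19533 passed the limits on UMIs and mitochondrial share, with 3089430 to 21402317 UMIs per tumor. Gates returned 13555 epithelial-like, 1434 macrophage-like, 2724 T-like, 184 B-like, 105 monocyte-like, 97 neutrophil-like, 80 dendritic-like, 60 fibroblast-like and 19 endothelial-like cells, and 133 cells with at least 2 of 6 NK markers and no T gate. The median cell carried 6 of 8 epithelial, 7 of 8 macrophage or 5 of 6 T markers in its gate. Those defining markers therefore stood behind the 3 large classes, whereas 58 of the 133 NK-gated and 30 of the 80 dendritic-like cells had no marker above the minimum. A further 577 cells passed several gates and were left out as possible doublets. Barcodes shared by tumors of 1 pool numbered 0. In 3 B20-4.1.1 tumors (the third of pool 1, and the first and the third of pool 2), T-like cells made up 58.3%, 67.7% and 66.4% of kept cells, against 3.19% to 21.5% in the other 12, and 91, 30 and 54 of the 184 B-like cells came from them. The treatment comparisons and the pooled values of T-like cells that these 3 tumors moved are therefore given with and without them, where the fit allowed it.

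**Figure D1:**
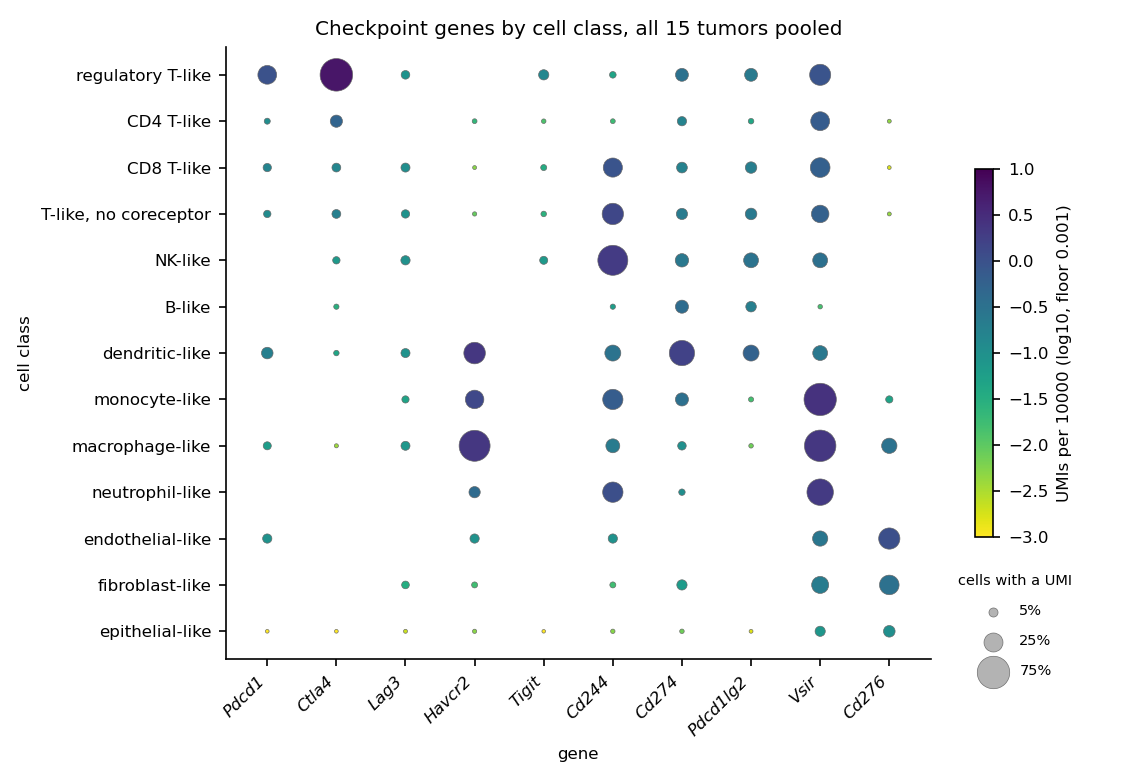
The dot plot shows the 10 members (columns) in 13 cell classes (rows), with color for UMIs per 10000 on a log10 scale and dot size for the percentage of cells with a UMI, pooled over 15 tumors. Havcr2 and Vsir peaked in myeloid classes, Ctla4 in regulatory T-like cells (5.99 UMIs per 10000), Cd244 in NK-gated cells (2.03) and Cd274 in dendritic-like cells (1.63).

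Levels were first ordered over classes within each gene, from all tumors pooled, with exact Poisson or binomial 95% intervals that cover counting error only. Where 0 cells had a UMI, the limit given is 3 cells of the total, a limit on cells with a UMI and not on cells that express the gene. The 3 tumors rich in T-like cells supplied 583 of 1107 CD8 T-like, 475 of 530 CD4 T-like and 467 of 995 T-like cells with no coreceptor UMI, so a pooled level of these classes leans on them. As a reference for stray transcripts, epithelial-like cells (median 8807 UMIs per cell) held a UMI of the 5 receptor genes Pdcd1, Ctla4, Lag3, Havcr2 and Tigit in 0.0590%, 0.0738%, 0.207%, 0.354% and 0.0147% of cells. T-like cells (median 4109.5 UMIs) held them in 3.52%, 7.19%, 3.63%, 0.404% and 1.47%. For 4 of these 5 receptors the T-like share was thus far above the epithelial-like one at a lower depth, and for Havcr2 the exact intervals overlapped (0.261% to 0.469% and 0.202% to 0.721%).

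Ctla4 was concentrated in regulatory T-like cells. Regulatory T-like cells, the 45 T-like cells with a Foxp3 UMI and no CD8 transcript, carried 5.99 UMIs per 10000 (5.00 to 7.12), and 34 of the 45 had a UMI. CD4 T-like cells without Foxp3 followed at 0.524 (0.432 to 0.629), CD8 T-like cells had 0.148 and T-like cells with no coreceptor UMI 0.192. The last pair overlapped in their intervals, whereas the regulatory and CD4 levels stood apart from each other and from the rest. Without the 3 tumors rich in T-like cells the order was the same, at 6.51 in 17 regulatory, 1.92 in 55 CD4, 0.126 in no-coreceptor and 0.0851 in CD8 T-like cells. Of all 515 Ctla4 UMIs, 88% were in T-like cells.

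Pdcd1, the receptor of both PD-1 ligands, was likewise highest in regulatory T-like cells, at 0.975 UMIs per 10000 (0.604 to 1.49) in 11 of 45 cells. CD8 T-like cells (0.158), those with no coreceptor UMI (0.120) and CD4 T-like cells (0.115) had overlapping intervals and were not separable by level. Without the 3 tumors CD4 T-like cells lay at 0.641 (0.359 to 1.06), on 15 UMIs in 3 of 55 cells (5.45%). CD8 T-like cells lay at 0.277 (0.223 to 0.342), in 7.63% of cells. The Poisson intervals did not overlap, but they count UMIs of 1 cell as independent. By share of positive cells the order was reversed, so these values do not order the CD4 and CD8 T-like classes. Macrophage-like cells held Pdcd1 at 0.0611, in 3.77% of cells, and NK-gated cells held none (0 of 133 cells, which allows a share of up to 2.26%). The T-like class held 59.5% of the 328 Pdcd1 UMIs, macrophage-like cells 19.2% and the cells that passed several gates 14.0%.

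Lag3, a receptor for MHC class II, had nearly level pooled values over CD8 T-like cells (0.109), NK-gated cells (0.0986), T-like cells with no coreceptor UMI (0.0938), dendritic-like (0.0898) and macrophage-like cells (0.0766), and these neighbors overlapped in their intervals. Without the 3 tumors rich in T-like cells, CD8 T-like cells were at 0.170 (0.128 to 0.222) and no-coreceptor T-like cells at 0.137 (0.0971 to 0.187). Both intervals then lay above that of macrophage-like cells, at 0.0767 (0.0603 to 0.0961), and overlapped those of NK-gated (0.0959) and dendritic-like cells (0.103). CD4 T-like cells held 0 UMIs in 530 cells, which allows a share of up to 0.566%, but 475 of them belonged to the 3 tumors in which T-like cells prevailed, where Lag3 was low in all T-like cells. The 55 CD4 T-like cells of the other tumors also held 0, which allows up to 5.45%. In these other tumors Lag3 was seen in 8.97% of CD8 T-like, 7.01% of no-coreceptor T-like and 5.88% of dendritic-like cells (4 of 68). These shares lay above that limit, whereas those of NK-gated (5.17%) and macrophage-like cells (4.87%) did not. Tigit, which binds the poliovirus receptor, was sparse, with 55 UMIs in all. Its level was highest in regulatory T-like cells (0.139, in 3 of 45), then in NK-gated (0.0704, in 5 of 133) and CD8 T-like cells (0.0357), with overlapping intervals. CD8 T-like cells held 21 of the 55 UMIs, in 19 of 1107 cells, and in 18 of 524 without the 3 tumors rich in T-like cells. Macrophage-like cells with a UMI were 0 of 1434, which allows a share of up to 0.209%.

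Havcr2 was a myeloid transcript in these tumors. Macrophage-like cells carried 2.35 UMIs per 10000 (2.26 to 2.44) in 68.2% of cells, dendritic-like cells 2.31 (1.96 to 2.70), monocyte-like cells 1.37 and neutrophil-like cells 0.407. The first 2 did not differ beyond their intervals. CD8 T-like cells held 3 UMIs in 2 of 1107 cells (0.181%), a share below that of epithelial-like cells (0.354%), and so at background. Macrophage-like cells held 78.1% of the 3102 Havcr2 UMIs.

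Cd244 ran from NK-gated cells at 2.03 (63.9% of cells) through T-like cells with no coreceptor UMI (1.39), neutrophil-like cells (1.11), CD8 T-like cells (0.922) and monocyte-like cells (0.677). Without the 3 tumors rich in T-like cells, CD8 T-like cells were at 1.56 (1.43 to 1.70), above neutrophil-like cells at 1.15 (0.823 to 1.56) though with overlapping intervals, and T-like cells with no coreceptor UMI at 2.06, next to NK-gated cells at 2.09. CD4 T-like cells were near background at 0.0184, with 4 UMIs in 530 cells. Among T-like cells with no coreceptor UMI, the 392 with a transcript of the gamma-delta receptor genes Trdc or Tcrg-C1 had Cd244 at 2.09 (1.90 to 2.29) in 59.2% of cells, and the other 603 at 0.752 (0.646 to 0.870) in 14.1%. These sides differ in their tumors, since 226 of the 392 but only 115 of the 603 cells came from isotype tumors. Without the 3 tumors rich in T-like cells the gap in Cd244 shrank to 2.17 against 1.84, and within tumors the level was higher on the Trdc or Tcrg-C1 side in 7 of 11. Pdcd1lg2 went from 0.356 against 0.130 over all tumors to 0.363 against 0.291 (7 of 11). Lag3 (0.166 against 0.0756, 8 of 11) and Pdcd1 (0.207 against 0.0864, 8 of 11) kept a gap without the 3 tumors, and Ctla4 was lower on that side over the pooled cells (0.0674 against 0.248) but in only 5 of 11 tumors. Tcrg-C1 transcripts also occurred in CD8 T-like cells, so the split is by transcript and does not define a lineage.

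Among the ligands, Cd274 was highest in dendritic-like cells at 1.63 (1.34 to 1.97), with a UMI in 45% of cells. B-like (0.394), monocyte-like (0.346) and regulatory T-like cells (0.325) followed and overlapped one another. Macrophage-like cells had 0.101, in 4.32% of cells, and epithelial-like cells 0.00762, in 0.531%. That epithelial-like share was close to those of Cd244 (0.457%) and Havcr2 (0.354%) in the same cells. T-like cells, with 33.6% of the 757 Cd274 UMIs, held more of them than epithelial-like cells (13.5%), although epithelial-like cells outnumbered them.

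Pdcd1lg2 shared its leading class with Cd274, at 0.569 (0.403 to 0.781) in dendritic-like cells. Over all tumors Pdcd1lg2 then ran through NK-gated cells (0.296), T-like cells with no coreceptor UMI (0.238), regulatory T-like (0.232), CD8 T-like (0.199) and B-like cells (0.197). Without the 3 tumors rich in T-like cells, NK-gated (0.336), no-coreceptor (0.340) and CD8 T-like cells (0.322) were nearly level, with overlapping intervals. Pdcd1lg2 was rare in macrophage-like cells (8 UMIs in 1434 cells). T-like cells held 57.1% of the 431 Pdcd1lg2 UMIs. Vsir was high over the myeloid classes, at 2.72 in monocyte-like (74.3% of cells), 2.29 in macrophage-like (70.4%) and 2.09 in neutrophil-like cells, with overlapping intervals between neighbors. Regulatory, CD4 and CD8 T-like cells had Vsir at 0.929, 0.703 and 0.624, dendritic-like cells at 0.255 and B-like cells at 0.0152, with 1 UMI in 184 cells.

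Cd276 was the only member whose leading classes were non-immune in this order. Endothelial-like cells had 1.08 (0.560 to 1.89) in 6 of 19 cells, but all 12 UMIs were in the 10 isotype cells (1.95) and the 9 B20-4.1.1 cells held 0. They were followed by fibroblast-like cells at 0.333, macrophage-like cells at 0.311 (0.278 to 0.347) and epithelial-like cells at 0.104 (0.0985 to 0.110) in 8.81% of cells. CD4 and CD8 T-like cells held 1 Cd276 UMI each, and B-like, NK-gated, dendritic-like and neutrophil-like cells held 0. Because of their number, epithelial-like cells nonetheless held 75.4% of the 1843 Cd276 UMIs.

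The dendritic-like class joined cells with opposite checkpoint profiles. The 24 cells with an Xcr1 or Clec9a UMI, genes of cross-presenting dendritic cells, came from 10 tumors, and the 48 with at least 2 of Ccr7, Fscn1 and Ccl22, genes of mature migratory dendritic cells, from 14. Havcr2 was present in 23 of 24 cells of the former (4.85 UMIs per 10000) and in 2 of 48 of the latter (0.217). Cd274 showed the reverse, with 2 of 24 cells (0.139) against 33 of 48 (3.13), and so did Pdcd1lg2, with 0 of 24 against 14 of 48 (1.18).

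Of the remaining members, Cd244 and Vsir leaned to the Xcr1 or Clec9a side. Cd244 was seen in 10 of 24 against 0 of 48 cells (0.485 against 0 UMIs per 10000) and Vsir in 9 of 24 against 1 of 48 (0.416 against 0.0310). Lag3 was seen in 3 of 24 cells on that side and 0 of 48 on the other, with overlapping exact intervals (2.66% to 32.4% and 0% to 7.40%). Pdcd1 was seen in 6 of 48 cells on the other side (0.372) and in 1 of 24, with overlapping exact intervals (4.73% to 25.3% and 0.105% to 21.1%). Ctla4, Tigit and Cd276 had 0 positive cells in both. The Xcr1 or Clec9a cells included 10 from isotype tumors and the others 21, so that both treatments were represented in each, with too few cells per tumor for a comparison between treatments.

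**Figure D2:**
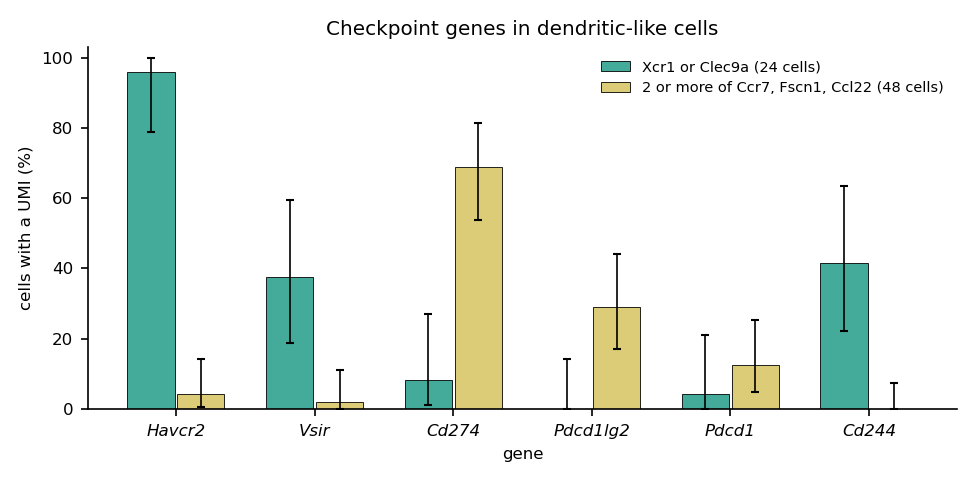
Bars show the percentage of dendritic-like cells with a UMI of 6 members, with exact 95% binomial intervals, in the 24 cells with Xcr1 or Clec9a and the 48 with at least 2 of Ccr7, Fscn1 and Ccl22. Havcr2 was seen in 95.8% and 4.17% of cells, and Cd274 in 8.33% and 68.8%.

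Within CD8 T-like cells, several receptors were seen in the same cells, and these shares depended on the tumors pooled. Of the 55 cells with a Lag3 UMI, 58.2% had a Cd244 UMI, against 23.8% of the other CD8 T-like cells, and without the 3 tumors rich in T-like cells 61.7% against 48.8%. Of the 45 with Pdcd1, 20% had Lag3 and 20% had Ctla4, against 4.33% and 4.05% of the others. Without the 3 tumors these were 20% against 8.06% and 17.5% against 2.89%, on 8 and 7 cells with both. Cells with Cd244 had Pdcd1lg2 in 20.9%, against 4.36%, and without the 3 tumors in 20.6% against 11.5%. Over all T-like cells, Ctla4 and Cd244 were seldom found in the same cell, with Cd244 in 6.12% of the 196 Ctla4-positive cells against 23.6% of the others, and without the 3 tumors in 12.5% against 51.8%. Against a class median of 4525 UMIs, the median CD8 T-like cell had 5726.5 UMIs where Lag3 and Cd244 were both seen and 4129 where Pdcd1 and Lag3 were. It had 7161 UMIs where Pdcd1 and Ctla4 were both seen and 7349 where Cd244 and Pdcd1lg2 were. The part of depth in these shares was not tested.

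T-like cells were next compared between treatments, since the PD-1 axis acts on them. With edgeR's quasi-likelihood test on sums per tumor and Benjamini-Hochberg adjustment, 0 of 6144 genes passed in T-like cells (0%), 970 had an unadjusted p under 0.05, and DESeq2 called 58. The 6 members that could be tested there were Pdcd1, Ctla4, Cd244, Cd274, Pdcd1lg2 and Vsir, and 0 of them passed. DESeq2 gave no adjusted p for any of the 6. Lag3, Tigit, Havcr2 and Cd276 had too few counts for the filter on low counts.

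Cd244 gave the widest gap between tumors. Its level in T-like cells was 1.70 UMIs per 10000 in the lowest isotype tumor, 1.85 at the median and 2.62 in the highest, and in B20-4.1.1 tumors 0.118, 1.21 and 2.03 (means 1.95 ± 0.34, SD, n = 6, and 1.1 ± 0.766, n = 9). The groups overlapped, and the 3 tumors rich in T-like cells were the lowest of all at 0.170, 0.118 and 0.172, while the other 6 B20-4.1.1 tumors lay between 1.09 and 2.03. The log2 fold change was -0.89 (SE 0.492, 95% interval -1.93 to 0.14), which did not pass (edgeR quasi-likelihood adjusted p = 0.379). Without those 3 tumors it was -0.26 (edgeR adjusted p = 0.810), and with pools as random blocks in limma voom -1.95 (adjusted p = 0.165).

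CD8 T-like cells showed the same picture for Cd244. A Cd244 UMI was present in 55.0% of 273 isotype and 15.8% of 834 B20-4.1.1 cells. The 3 tumors rich in T-like cells supplied 583 of these 834 cells, and only 20 of the 583 had a Cd244 UMI. In the other tumors of both treatments, 262 of 524 CD8 T-like cells had one, so the pooled B20-4.1.1 share leans on the 3 tumors. Over tumors with at least 20 CD8 T-like cells, the level was 1.68, 1.81 and 2.05 in isotype tumors (lowest, median and highest of n = 5). In B20-4.1.1 tumors it was 0.136, 0.826 and 1.98 (n = 8). The log2 fold change was -1.06 (SE 0.480, 95% interval -2.07 to -0.05, unadjusted p = 0.0405 in the edgeR fit across genes) and was lost on adjustment over 4642 genes (edgeR adjusted p = 0.261). It was -0.38 without the 3 tumors rich in T-like cells (edgeR adjusted p = 0.670) and -1.87 with pools as random blocks (limma voom adjusted p = 0.0726). In this class 0 of 4642 genes passed (0%), 826 had an unadjusted p under 0.05 and DESeq2 called 78, with Cd244 and Vsir not among them and no adjusted p for Pdcd1lg2.

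**Figure D3:**
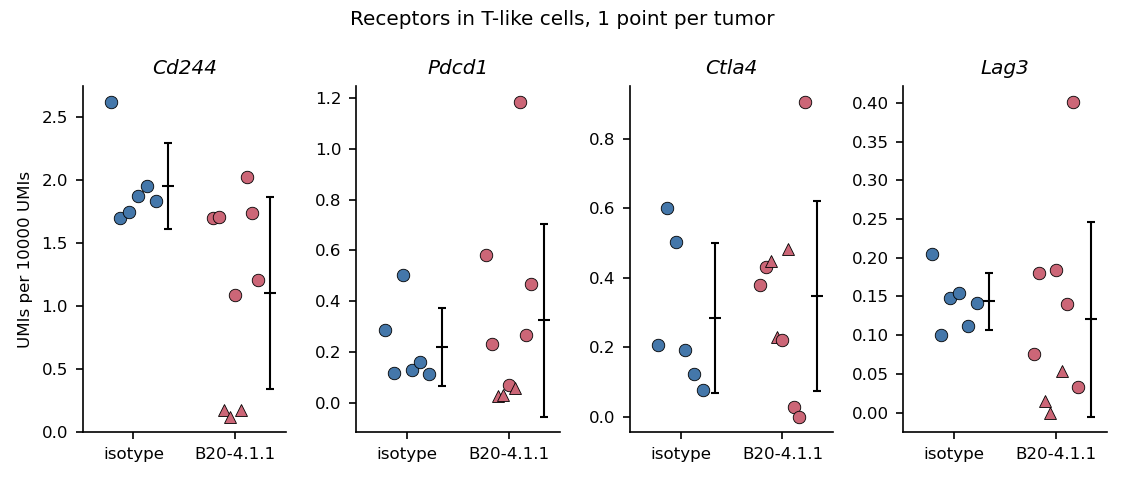
Each point is the level of Cd244, Pdcd1, Ctla4 or Lag3 in the T-like cells of 1 tumor (UMIs per 10000), with mean and SD for 6 isotype and 9 B20-4.1.1 tumors and triangles for the 3 tumors rich in T-like cells. For Cd244 the triangles sit at 0.118 to 0.172, under every other tumor, and the isotype tumors span 1.70 to 2.62.

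Those 3 tumors also differed in T cell markers. Genes of naive and recirculating T cells (Ccr7, Lef1 and S1pr1) were all 3 higher in their T-like cells than in any other tumor, Lef1 for example at 4.96 to 5.26 UMIs per 10000 against at most 1.47 after thinning each cell to 2500 UMIs. A UMI of Ccr7 or Lef1 was found in 74.4%, 77.2% and 83.0% of their T-like cells, against 4.64% to 22.4% in isotype and 0% to 22.1% in the remaining B20-4.1.1 tumors. The part of this mix in the treatment comparison was not tested beyond the values that follow.

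Cd244 was found mostly in T-like cells without these transcripts. After thinning, 26.0% of the 1350 cells without a Ccr7 or Lef1 UMI had a Cd244 UMI, against 0.728% of the 1374 with one, and the level was higher without them in 13 of the 13 tumors with at least 5 cells of each kind. The 3 tumors rich in T-like cells supplied 495, 267 and 485 of the 1374, so the pooled shares also compare tumors. In these 3, Cd244 was seen in 7.65%, 5.06% and 4.04% of cells without and 0.606%, 0.375% and 0.825% of cells with such a UMI. In the other tumors it was seen in 21.6% to 42.4% of cells without. Pdcd1lg2 was also higher without them (6.74% against 0.364%, higher in 13 of 13 tumors), as was Lag3 over the pooled cells (3.19% against 0.218%, 10 of 13). In the 3 tumors rich in T-like cells, Lag3 was at 0.0235, 0 and 0 UMIs per 10000 in cells without them. The other counted tumors had only 6 to 38 cells with a Ccr7 or Lef1 UMI, where so sparse a gene is likely to read 0. The tumor counts of Lag3 and Pdcd1lg2 therefore decide little. Pdcd1 was found more often without them over the pooled cells (3.19% against 1.02%), but its level was higher in only 7 of 13 tumors. Ctla4 (5.41% against 5.24%, 8 of 13) and Vsir (12.6% against 15.9%, 7 of 13) did not lean clearly to that side.

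When only cells without a Ccr7 or Lef1 UMI at full depth were summed, the Cd244 fold change was -0.46 on the log2 scale in T-like (edgeR adjusted p = 0.339) and -0.32 in CD8 T-like cells (adjusted p = 0.740). Per-tumor levels were taken from T-like cells with no such UMI after thinning. That wider set can hold cells with a Ccr7 or Lef1 UMI at full depth. In it Cd244 ranged from 0.242 to 2.24 UMIs per 10000 over the B20-4.1.1 tumors and from 1.63 to 3.47 over the isotype tumors, with the 3 tumors rich in T-like cells at 0.471, 0.304 and 0.242. These 3 tumors thus remained the lowest of the 15 for this gene in the thinned set, and their levels in the full-depth set were not compared.

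**Figure D4:**
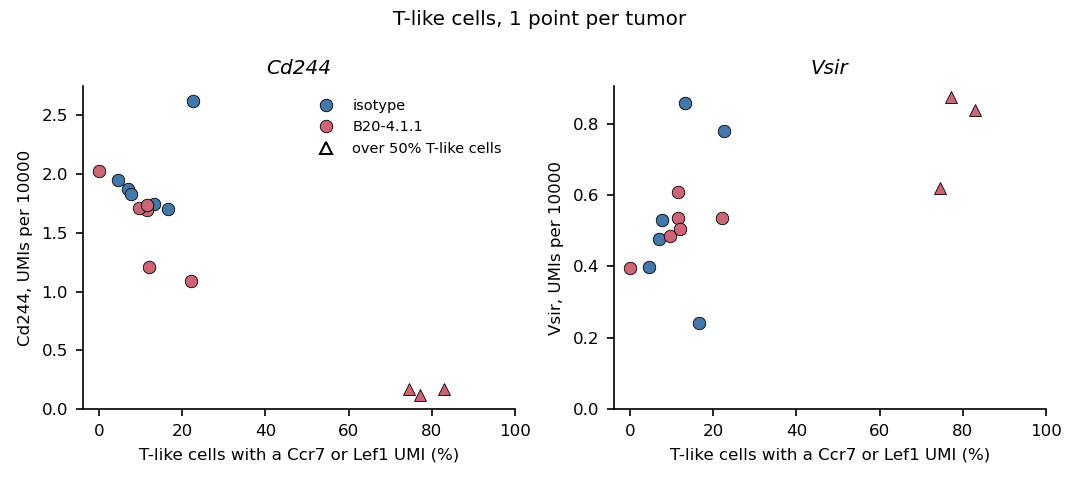
Each point is 1 tumor, with the percentage of T-like cells holding a Ccr7 or Lef1 UMI (thinned cells, x axis) against the level of Cd244 or Vsir in T-like cells (UMIs per 10000, y axis). The 3 tumors at 74.4% to 83.0% have Cd244 at 0.118 to 0.172, whereas their Vsir levels of 0.620 to 0.874 lie within or just above the range of the others.

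Pdcd1 varied more among B20-4.1.1 tumors than among isotype tumors. Its level in T-like cells was 0.116, 0.146 and 0.502 in the lowest, median and highest isotype tumor, and 0.0270, 0.234 and 1.18 in B20-4.1.1 tumors. The highest value came from the first tumor of pool 3 (42 UMIs in 59 cells), and the 3 lowest from the tumors in which T-like cells prevailed. The log2 fold change was 0.38 (95% interval -1.25 to 2.01, edgeR adjusted p = 0.867), and 1.21 without those 3 tumors (edgeR adjusted p = 0.671). Without B20-4.1.1 pool 3 it was -0.71 and without isotype pool 2 -0.12, so its direction was not fixed.

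The other receptors overlapped between treatments too. Ctla4 was 0.0775, 0.198 and 0.601 in isotype and 0, 0.380 and 0.906 in B20-4.1.1 tumors, with a log2 fold change of 0.62 (95% interval -0.44 to 1.67, edgeR adjusted p = 0.570). Without isotype pool 2 this turned to -0.16, and without the 3 tumors rich in T-like cells the gene had too few counts for the filter, with 0, 0.299 and 0.906 in the other 6 B20-4.1.1 tumors. Lag3 was 0.1, 0.145 and 0.205 against 0, 0.0759 and 0.402, with 3.63% of T-like cells positive in all, and 0.0336, 0.160 and 0.402 in those 6 tumors. Tigit was 0.0296, 0.0399 and 0.180 against 0, 0.00766 and 0.180, and 0, 0.0309 and 0.180 in the 6. Neither gene passed the filter, and they are given as levels only.

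The ligand transcripts in T-like cells overlapped between treatments as well. Cd274 had 0.137, 0.198 and 0.271 UMIs per 10000 in isotype and 0.134, 0.191 and 0.329 in B20-4.1.1 tumors, with a log2 fold change of 0.14 (95% interval -0.29 to 0.57, edgeR adjusted p = 0.811). The range of Cd274 in the 3 tumors rich in T-like cells, 0.173 to 0.191, fell inside that of the isotype tumors, and without them the gene had too few counts for the filter. Pdcd1lg2 had 0.177, 0.285 and 0.323 against 0.0424, 0.302 and 0.468, the 3 lowest again being the tumors rich in T-like cells (0.0424 to 0.0727). Its log2 fold change of -0.36 (edgeR adjusted p = 0.745) turned to 0.36 without them. Vsir had 0.240, 0.503 and 0.857 against 0.395, 0.535 and 0.874, with log2 fold changes of 0.41 in T-like (edgeR adjusted p = 0.449) and 0.68 in CD8 T-like cells (95% interval -0.06 to 1.42, adjusted p = 0.318). Without the 3 tumors these were 0.05 and 0.21.

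In macrophage-like cells, the class of Havcr2 and Vsir, edgeR's quasi-likelihood test called 0 of 6945 genes (0%, 736 with an unadjusted p under 0.05), and DESeq2 called 35, with no member among them. Havcr2 had 1.91, 2.27 and 2.54 UMIs per 10000 in the lowest, median and highest isotype tumor (n = 6) and 1.97, 2.38 and 2.87 in B20-4.1.1 tumors (n = 7). The groups overlapped over almost their whole range, and the log2 fold change was 0.18 (95% interval -0.07 to 0.43, edgeR adjusted p = 0.619). Vsir had 1.83, 2.28 and 2.68 against 1.64, 2.17 and 2.67, with a log2 fold change of -0.03 (95% interval -0.29 to 0.24, edgeR adjusted p = 0.962). Neither interval reached beyond 0.43 on the log2 scale in either direction. Both transcripts were found in 723 macrophage-like cells, where independent detection at their shares would give 688.8.

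Cd276 in macrophage-like cells was 0.136, 0.347 and 0.442 in isotype and 0.119, 0.248 and 0.302 in B20-4.1.1 tumors. Its log2 fold change of -0.42 (95% interval -0.91 to 0.07) did not pass (edgeR adjusted p = 0.546), and the isotype values ran from 0.343 to 0.442 in pool 1 and from 0.136 to 0.351 in pool 2. Cd244, at 0.0681, 0.239 and 0.271 against 0.0792, 0.221 and 0.302, had a log2 fold change of 0.02 (95% interval -0.52 to 0.56, edgeR adjusted p = 0.989).

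Cd274 in macrophage-like cells was too sparse for the filter on low counts. It lay at 0.0374, 0.0643 and 0.122 in isotype and at 0.0801, 0.132 and 0.257 in B20-4.1.1 tumors, with a UMI in 3.37% and 5.88% of cells, and the groups overlapped, with 2 of the 6 isotype tumors above the lowest B20-4.1.1 tumor. With no filter its log2 fold change was 0.92 (unadjusted p = 0.0127, edgeR adjusted p = 0.347), on 50 and 54 UMIs. Pdcd1 was 0.0374, 0.0674 and 0.120 against 0, 0.0396 and 0.0801, and Lag3 0, 0.0593 and 0.104 against 0, 0.0414 and 0.201, both with overlap.

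In epithelial-like cells edgeR's quasi-likelihood test on tumors called 1793 of 12293 genes (14.6%). When pools entered voom as random blocks, 39 were called, fewer than the 89 of CD8 T-like cells, and with sums per pool 0. Of the members, Vsir and Cd276 could be tested and 0 of 2 passed. Cd276 had 0.0800, 0.117 and 0.159 UMIs per 10000 in isotype and 0.0688, 0.0984 and 0.128 in B20-4.1.1 tumors, with a log2 fold change of -0.14 (SE 0.135, 95% interval -0.42 to 0.14, edgeR adjusted p = 0.501). Vsir had 0.0420, 0.0893 and 0.114 against 0.0415, 0.0800 and 0.101, with a log2 fold change of 0.04 (95% interval -0.40 to 0.48, edgeR adjusted p = 0.921). DESeq2, which called 2164 genes in this class, also called neither.

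**Figure D5:**
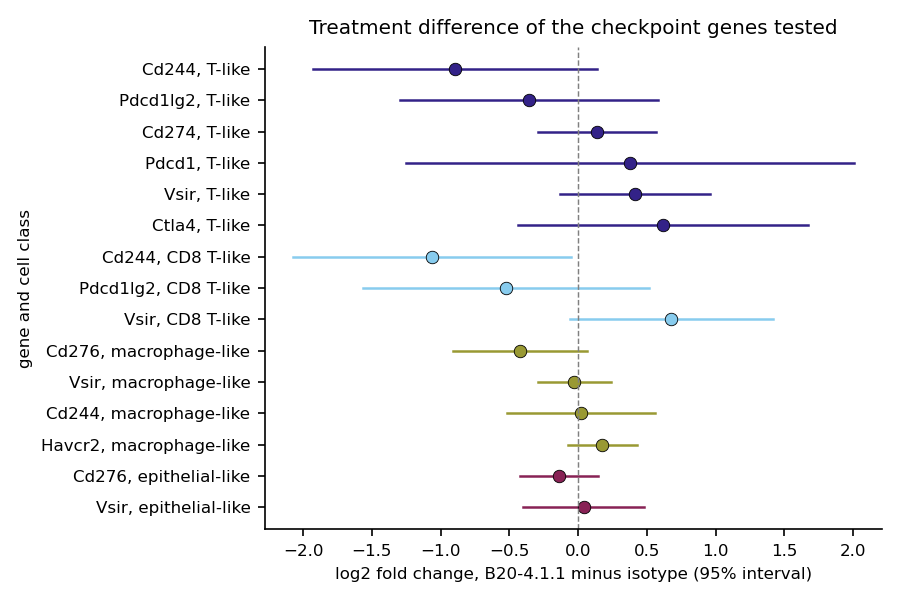
Points are log2 fold changes (B20-4.1.1 minus isotype) of the members that could be tested in each of 4 classes, with 95% intervals from edgeR's quasi-likelihood fit. Only the interval of Cd244 in CD8 T-like cells (-2.07 to -0.05) leaves 0 outside, and its adjusted p was 0.261.

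Cd274 in epithelial-like cells rested on 102 UMIs in 13555 cells. It lay at 0.00102, 0.00582 and 0.0106 in the lowest, median and highest isotype tumor and at 0, 0.00646 and 0.0597 in B20-4.1.1 tumors. The highest value came from the third tumor of pool 1, one of those rich in T-like cells, on 20 UMIs in 294 cells, and the groups overlapped. With no filter the log2 fold change was 1.24 (edgeR adjusted p = 0.254). Pdcd1lg2 had 21 UMIs and a log2 fold change of 1.49 with no filter (edgeR adjusted p = 0.207), and Ctla4, with 12 UMIs, had 2.27 (edgeR adjusted p = 0.133).

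To ask whether PD-L1 transcripts follow hypoxia or interferon within a tumor, epithelial-like cells were split in each tumor by a score and thinned to 2500 UMIs. Cd274 was 0.00764 ± 0.0147 UMIs per 10000 in cells with a hypoxia score (Vegfa, Slc2a1 and Car9) above 0 and 0.00709 ± 0.0112 in cells at 0 (SD, n = 15), on 6 and 19 UMIs. The difference of 0.000555 ± 0.0182 had either sign, higher in 4 tumors, lower in 4 and equal in 7 (exact two-sided sign-flip permutation p = 0.914 before and after adjustment over 2 comparisons). For the interferon score (Irf1, Gbp2, Psmb9, Tap1, Cxcl10, Ifit3 and Isg15), the levels were 0.0130 ± 0.0169 and 0.00477 ± 0.00763, on 14 and 11 UMIs. The difference of 0.00826 ± 0.0132 was higher in 6 tumors and lower in 2, with an exact sign-flip permutation p of 0.0391 that became 0.0781 after adjustment over both comparisons. At full depth it was 0.0153 (exact sign-flip permutation, adjusted p = 0.00635), and the hypoxia difference was 0.00915 (exact sign-flip permutation, adjusted p = 0.0555), where score and Cd274 detection both rise with the UMIs of a cell. The differences did not separate by treatment (exact permutation p = 0.768 for hypoxia and 0.747 for interferon, over 5005 splits), and at this depth, with 25 Cd274 UMIs in all, only large effects were detectable.

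The molecules around the members were also counted from lists. In T-like, CD8 T-like and macrophage-like cells 0 list genes passed, as did 0 of all genes. In epithelial-like cells, against a background of 7.48% called higher and 7.11% lower, 2 of 7 tested partner ligands and receptors, 1 of 3 costimulatory, 3 of 6 other inhibitory, 1 of 3 adaptor, 1 of 5 interferon gamma input genes and 1 of 9 transcription factors were called higher, and 3 of the 9 factors lower. When pools were random blocks (within-pool correlation 0.536) 2 of these 12 genes passed, and with sums per pool 0 did. The medians of these lists ran from -0.24 for the factors to 0.41 for the other inhibitory genes on the log2 scale, with -0.005 over all genes.

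Among those called were Lgals9 (galectin-9, described as a TIM-3 ligand), with a log2 fold change of 1.23 (edgeR adjusted p = 0.00101), and Ceacam1, another TIM-3 partner, at 0.39 (adjusted p = 0.0435). Of the other inhibitory genes, Vtcn1 (B7-H4) rose by 0.63 (edgeR adjusted p = 0.00112), Cd47, the signal that restrains phagocytosis through SIRP alpha, by 0.53 (adjusted p = 0.000781) and H2-T23, the ligand of NKG2A, by 0.29 (adjusted p = 0.0382). The costimulatory ligand Tnfsf9 (4-1BBL) rose by 1.19 (edgeR adjusted p = 0.00177), the adaptor Grb2 by 0.40, the interferon gamma receptor chain Ifngr1 by 0.47 and the factor Tcf7 by 0.69, while Nr4a1 (-0.47), Nr4a2 (-0.97) and Tox2 (-0.59), factors named for their part in chronic T cell stimulation, fell in these epithelial-like cells. The 2 that passed with pools as random blocks were Lgals9 and Nr4a2 (limma voom adjusted p = 0.0493 for each). Without the tumors rich in T-like cells, Tcf7 (edgeR adjusted p = 0.072), H2-T23 (0.072), Nr4a1 (0.052) and Tox2 (0.075) did not pass. The other called genes named here still passed without those tumors.

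The genes whose levels ran most like those of a member were read over the 8 classes of at least 100 cells, by Pearson r among 13876 genes, as a description only. These classes left out regulatory T-like, dendritic-like, neutrophil-like, fibroblast-like and endothelial-like cells. The leading classes of Ctla4, Pdcd1, Cd274, Pdcd1lg2 and Cd276 were thus not covered. Ctla4 was most like Icos (0.997) and Tnfrsf25 (0.995), both genes of T cell costimulation, and Havcr2 most like Clec4n (0.999) and Milr1 (0.997). Vsir was most like Apaf1 (0.990) and Rhog (0.989), Cd276 like Zfp791 (0.999) and Mras (0.998), and Cd274 like Rgs14 (0.930) and Ptp4a3 (0.926). Pdcd1 paired with Gm20186 (0.991) and Kif23 (0.971), Lag3 with Hnrnpm (0.989) and Bard1 (0.976), Cd244 with Gm4070 (0.976) and Spaca9 (0.974), and Pdcd1lg2 with Gm19585 (0.973) and Rmi2 (0.971). Tigit had under 100 UMIs and was not ranked.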

How the data were processed

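Single-cell 3′ libraries of 15 tumors were made with multiplexing oligonucleotides, 3 tumors to a pool, and sequenced on a NextSeq 550. The authors aligned and counted reads with Cell Ranger 6.1.2 per the file headers, and the submitters' processing notes also name bcl2fastq, Seurat 4.3.0 and mm10. The deposited values are raw UMI counts, 1 matrix per tumor, with no normalization. The members and lists were chosen with earlier results of these data known.

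The study's limits of 2500 and 27500 UMIs per cell were applied, with a mitochondrial share of up to 20% (10630 isotype and 8903 B20-4.1.1 cells remained). The UMI minimum removed 7126 and 2981 cells. A cell entered a class when it had a UMI of at least 4 of 8 epithelial, 3 of 6 T, 2 of 6 NK, 3 of 6 B, 4 of 8 macrophage, 3 of 6 monocyte, 4 of 6 neutrophil, 3 of 10 dendritic, 3 of 6 endothelial or 3 of 6 fibroblast markers, numbers that were set on these files. No doublet caller was run, 577 cells that passed several gates (2.95%) were left out and 565 were unassigned. Against named Leiden clusters (2500 variable genes, 16 components, 20 neighbors, resolution 0.8), 2667 of 2724 T-like, 13392 of 13555 epithelial-like, 1299 of 1434 macrophage-like and 48 of 80 dendritic-like cells had the same name, and 73 of 105 monocyte-like cells lay in unnamed clusters.

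Counts were summed per tumor and class, for tumors with at least 20 cells and classes with at least 4 such tumors per group, which left epithelial-like, macrophage-like, T-like and CD8 T-like cells. They were tested with edgeR 4.0.16 in R 4.3.3 (two-sided quasi-likelihood F test with TMM factors after filterByExpr, Benjamini-Hochberg over all genes at 0.05, no covariate), which was tested on simulated data. Alternatives used RLE factors, DESeq2 1.42.0, no filter, limma 3.58.1 voom with the pool as random block, sums per pool, each pool left out, a minimum of 1000 UMIs, thinned cells, mixed cells kept, and clusters. Leaving out the 3 tumors rich in T-like cells, and T-like cells with no Ccr7 or Lef1 UMI, were chosen after seeing the data. The latter set, the interferon score and the interferon gamma list each held 1 more gene as planned, which is not reported here and was removed after results with it were known. The hypoxia and interferon splits were planned at the median of the score within each tumor, but the median was 0 in 15 of 15 tumors, so cells above 0 (18.2% and 28.9%) were compared with cells at 0, by exact sign-flip permutation tests over tumors. All 10 members were named in the text, with up to 5 called genes per list and class by adjusted p, and for each member the 2 genes of highest Pearson r over classes on log2(UMIs per 10000 + 0.1). Figures and splits used Python 3.11.15 with numpy 2.4.6, scipy 1.17.1, pandas 2.3.3, scanpy 1.11.5 and matplotlib 3.10.9. Positions are from GENCODE on GRCm38, which holds Cd244 as Cd244a. Ly9 and Cdh23 overlap Cd244 and Vsir on the opposite strand, and a pseudogene, Rpl18-ps1, overlaps Ctla4 on the same strand.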

Additional observations from a re-analysis of the deposited data

Results flagged for a closer look

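In 2 of 30 groups of tumors tested for an extreme value with Dixon's criterion, 1 tumor stood apart from the rest, where chance marks about 1 in 20 groups. Pdcd1 in T-like cells was 1.18 UMIs per 10000 in the first tumor of B20-4.1.1 pool 3, against 0.582 in the next of the 9 tumors, a gap of 0.520 of the whole range (limit 0.493). Cd244 in T-like cells was 2.62 in the first tumor of isotype pool 1, against 1.95 in the next of 6, a gap of 0.731 of the range (limit 0.625), on 64 UMIs in 49 cells.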

How the results depend on the processing

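Of 217 member fold changes under alternatives, 195 kept their direction, 22 changed sign and 0 had an adjusted p under 0.05 (7 had no adjusted p, all with DESeq2, the 6 members in T-like cells and Pdcd1lg2 in CD8 T-like cells). Vsir in epithelial-like cells (0.04) turned with the pool as random block (-0.0248), with sums per pool (-0.000645), without isotype pool 2 (-0.342) and without B20-4.1.1 pool 1 (-0.112). Cd244 in macrophage-like cells (0.02) turned with the pool block (-0.0224), without isotype pool 2 (-0.0815), without B20-4.1.1 pool 3 (-0.00358), with a minimum of 1000 UMIs (-0.0297), with mixed cells (-0.0716) and with clusters (-0.349). Vsir there (-0.03) turned without isotype pool 1 (0.134), without B20-4.1.1 pool 3 (0.000923), with 1000 UMIs (0.0521), mixed cells (0.0565) and clusters (0.0543). In T-like cells Pdcd1 turned with the pool block (-1.11), without isotype pool 2 (-0.117) and without B20-4.1.1 pool 3 (-0.713), Ctla4 without isotype pool 2 (-0.155), and Pdcd1lg2 without isotype pool 2 (0.0272), without the 3 tumors rich in T-like cells (0.364) and in cells with no Ccr7 or Lef1 UMI (0.289). The cause was not tested. With 1 pool left out, these ranged over -0.342 to 0.57 (Vsir) in epithelial-like, -0.0815 to 0.219 (Cd244) and -0.161 to 0.134 (Vsir) in macrophage-like, and -0.713 to 1.14 (Pdcd1), -0.155 to 1.57 (Ctla4) and -0.623 to 0.0272 (Pdcd1lg2) in T-like cells.

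Counts of called genes depended on the setting more than the members did. In epithelial-like cells they were 1793, 990 with thinned cells, 39 with the pool block, 0 with sums per pool and 400 to 5455 with 1 pool left out. In macrophage-like cells 0 became 35 with DESeq2, 68 with no filter, 33 with clusters and 0 to 511 with 1 pool left out, and in T-like cells 58 with DESeq2, 4 with clusters, 7 in cells with no Ccr7 or Lef1 UMI and 0 to 276. In CD8 T-like cells 0 became 9 with RLE factors, 78 with DESeq2, 164 with no filter, 89 with the pool block, 1 with sums per pool and with thinned cells, 2 with 1000 UMIs, 3 with mixed cells or without the 3 tumors, 2 in cells with no Ccr7 or Lef1 UMI and 0 to 317 with 1 pool left out. The Cd274 difference by hypoxia score turned when measured as percent of cells (-0.0103) and ranged from -0.000855 to 0.00253 with 1 pool left out. At full depth it was 0.00915 and did not pass, and by interferon score it passed (0.0153). Of 177 fold changes of list genes, 53 lost the threshold and 0 changed sign. No paired analysis was possible because pool numbers were given in accession order and pair no samples.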
